A study of Zea mays with 18 samples.

Results

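The sucrose synthases shrunken1 (sh1, Zm00001d045042.RefGen_V4) and sucrose synthase 1 (sus1, Zm00001d047253.RefGen_V4) are the 2 genes described here, chosen by ID out of 28724 gene IDs counted in the maize quiescent centre. Neither the table of counts nor the table of maize genes used here pairs these IDs with names. The names are those under which the gene models are generally known in maize. Sucrose synthase splits sucrose with UDP into fructose and UDP-glucose, so that sugar enters glycolysis and cell wall synthesis at a lower cost in ATP than through invertase. In maize, sh1 is the isoform best known from the endosperm, where its loss gives collapsed kernels, and its transcript is known to accumulate in roots short of oxygen. The sus1 isoform is widely expressed in the plant, and its transcript is known from maize roots to follow the sugar supply.

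RNA came from quiescent centres, the slowly dividing stem cells at the root tip, of seedlings aged 5 days. The genotypes were WT, Pgb1.1S (line S, in which the phytoglobin ZmPgb1.1 is overexpressed) and Pgb1.1A (line A, in which it is down-regulated). Each was sampled at 0 h under normoxia (WT_0h, S_0h, A_0h) and after 12 h in a solution supplied with 4% oxygen (WT_12h, S_12h, A_12h), with 3 libraries per group and 18 in all. All roots were submerged in diluted Murashige and Skoog medium. Without a group kept for 12 h under normoxia, low oxygen cannot be told apart from the passage of time. The sources used here do not give the promoter of the transgenes, the number of independent lines or the number of roots per library. The quiescent centre was not checked against its markers and the lines were not checked against ZmPgb1.1. The sources used here pair no ID of the table with the name of a marker or of ZmPgb1.1.

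Both genes were deeply covered. Libraries held 35441975 to 89759585 counts, of which sh1 took 58737 to 177587 (0.12 to 0.211% of a library) and sus1 took 116501 to 617350 (0.247 to 0.771%). The counting error of the thinnest of these values was 0.413%, far below the spread between libraries. Labels did not fully match the likeness of the libraries across all genes. Of 18 libraries, 0 had both of their 2 nearest libraries under their own label. In 12 libraries 1 of the 2 was under it. In 6 libraries, 1 in each group, both were under another label. Both nearest libraries of WT_0h replicate 2 were labelled WT_12h, those of WT_12h replicate 3 S_0h, those of S_0h replicate 3 WT_0h, those of S_12h replicate 3 A_0h, those of A_0h replicate 3 A_12h and those of A_12h replicate 3 S_12h. Tests are therefore given with all 18 libraries and without these 6, which leaves 2 libraries per group. The 6 were picked from the same counts as those least like their group, which lowers the spread by construction, so p-values without them are too small and are no separate support.

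The level of sh1 was highest in A_12h, where all 3 libraries lay close together. In counts per 1000000 of the scaled library (CPM), replicates 1 to 3 of A_12h measured 2046, 2083 and 1905 CPM, a mean of 2011 ± 93.9 (SD, n = 3). S_12h measured 1880 and 1907 CPM in replicates 1 and 2 and 1228 CPM in replicate 3 (1672 ± 384). A_0h showed the opposite, with 1217 and 1206 CPM in replicates 1 and 2 and 2046 CPM in replicate 3 (1490 ± 482). In both groups the library that differed was one of the 6 nearest to another label. The remaining groups spread less. WT_0h measured 1658, 1331 and 1554 CPM (1514 ± 167). S_0h measured 1353, 1235 and 1561 CPM (1383 ± 165). WT_12h was lowest, with 1438, 1283 and 1343 CPM (1355 ± 78.0). From A_12h down through S_12h, WT_0h, A_0h, S_0h and WT_12h, every pair of neighbours in the order of means overlapped. Across libraries the level ran over a 1.73-fold range, and its widest step parted 6 libraries at 1880 to 2083 CPM from 12 libraries at 1206 to 1658 CPM. The 6 high libraries were S_12h replicates 1 and 2, all 3 of A_12h, and A_0h replicate 3.

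The level of sus1 ran over a wider range, 3.23-fold, and had its highest mean in WT_0h. WT_0h measured 7890, 2948 and 7039 CPM in replicates 1 to 3 (5959 ± 2642, SD, n = 3). S_0h measured 2445, 3134 and 7285 CPM (4288 ± 2618). In each of these groups 1 library stood apart from the other two, below them in WT_0h and above them in S_0h. A_0h was more even, at 4911, 4807 and 3752 CPM (4490 ± 642). After 12 h of hypoxia WT_12h measured 2865, 2778 and 2481 CPM (2708 ± 201), the lowest mean of the 6 groups. S_12h measured 3168, 3328 and 4939 CPM (3812 ± 980). A_12h measured 3827, 3884 and 3214 CPM (3641 ± 372). In the order WT_0h, A_0h, S_0h, S_12h, A_12h and WT_12h only the last pair of neighbours, A_12h and WT_12h, did not overlap. The widest step in the ordered libraries parted WT_0h replicates 1 and 3 and S_0h replicate 3, at 7039 to 7890 CPM, from the other 15, at 2445 to 4939 CPM.

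**Figure D1:**
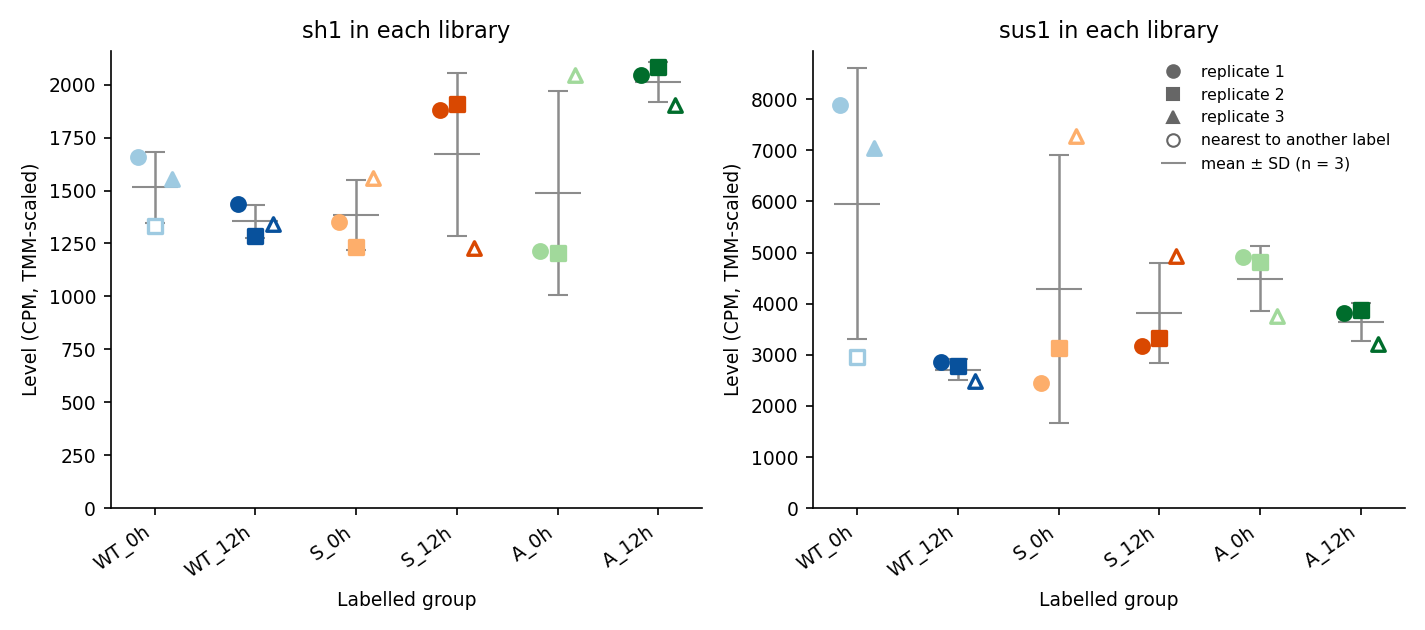
Level of sh1 (left) and sus1 (right) in CPM (y axis, from 0) in each library, by labelled group (x axis), with marker shape for the replicate, open markers for the 6 libraries nearest to another label and grey bars for mean ± SD (n = 3). Open markers lie away from the filled markers of their group in most groups, as S_12h replicate 3 does for sh1 (1228 against 1880 and 1907 CPM) and S_0h replicate 3 for sus1 (7285 against 2445 and 3134 CPM).

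With the labels as given, neither gene passed the threshold (Benjamini-Hochberg adjusted p under 0.05 over 20945 genes, edgeR quasi-likelihood test) in any of the 12 comparisons of line and oxygen. The lowest adjusted p was 0.0894 for sh1, in A_12h against WT_12h, and 0.148 for sus1, in the mean response of the 3 lines to hypoxia. Without adjustment, 3 comparisons of sh1 and 2 of sus1 had a p under 0.05. DESeq2 called sh1 in A_12h against WT_12h, where it called 3114 of 20384 genes, and made no other call for either gene. Without the 6 libraries edgeR called sh1 in 10 of 12 comparisons, 7 with a positive and 3 with a negative difference, and sus1 in 9 of 12, 4 positive and 5 negative. In that fit between 20.1 and 59.5% of all 21030 genes were called, so a call alone did not set these genes apart.

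In WT, sus1 measured lower after hypoxia in every library. All 3 WT_12h libraries lay below all 3 WT_0h libraries, which 4.64% of tested genes showed in this direction. The margin was narrow, with WT_0h replicate 2 at 2948 CPM and WT_12h replicate 1 at 2865 CPM. The smallest exact two-sided permutation p for 3 against 3 libraries is 0.1, so separation alone is weak. The log2 fold change was -1.14 (SE 0.38, 95% interval -1.94 to -0.33, adjusted p = 1), a fitted level 2.20-fold lower, in a comparison where 0% of genes were called. Leaving out the 6 libraries gave means of 7464 ± 602 CPM in WT_0h and 2821 ± 61.7 CPM in WT_12h (SD, n = 2). The log2 fold change was then -1.41 (SE 0.12, adjusted p = 0.000185), against 29.2% of genes called. The sh1 log2 fold change in WT was -0.16 (SE 0.20, 95% interval -0.58 to 0.26, adjusted p = 1), with overlapping groups. Without the 6 libraries sh1 measured 1361 ± 109 CPM in WT_12h and 1606 ± 73.1 CPM in WT_0h (SD, n = 2). The log2 fold change was then -0.24 (SE 0.05, adjusted p = 0.00342). Both adjusted p-values without the 6 libraries are too small because of how the 6 were picked.

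In line S the sh1 groups overlapped, and the log2 fold change under hypoxia was 0.27 (SE 0.20, 95% interval -0.14 to 0.69, adjusted p = 0.365), in a comparison with 8.70% of genes called. It ran from 0.17 without S_12h replicate 2 to 0.45 without S_12h replicate 3 (adjusted p = 0.0807). When the 6 libraries were left out, sh1 was at 1894 ± 19.2 CPM in S_12h and 1294 ± 83.3 CPM in S_0h (SD, n = 2), a log2 fold change of 0.55 (SE 0.05, adjusted p = 8.69e-07), where 54.9% of genes were called. The sus1 log2 fold change in line S was -0.17 (SE 0.37, 95% interval -0.96 to 0.62, adjusted p = 0.79). It rested on S_0h replicate 3, the library at 7285 CPM, and was 0.45 without that library alone and 0.22 (SE 0.11, adjusted p = 0.153) without the 6.

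In line A the sh1 log2 fold change under hypoxia was 0.43 (SE 0.20, 95% interval 0.01 to 0.85, adjusted p = 0.257), with 0% of genes called. A single library decided this result: without A_0h replicate 3, which held as much sh1 as A_12h, the log2 fold change was 0.72 and adjusted p was 0.0154. Without that library 5112 of 21314 genes were called in this comparison, so the call did not set sh1 apart. In the remaining libraries once the 6 were left out, sh1 measured 2065 ± 26.5 CPM in A_12h and 1212 ± 7.13 CPM in A_0h (log2 fold change 0.77, SE 0.05, adjusted p = 2.82e-08), against 59.5% of genes called. The sus1 log2 fold change was -0.30 (SE 0.37, 95% interval -1.10 to 0.49, adjusted p = 0.596). It was -0.33 (SE 0.11, adjusted p = 0.0439) without the 6, from 4859 ± 73.5 to 3855 ± 40.5 CPM.

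Averaged over the 3 lines, hypoxia went with a log2 fold change of 0.18 for sh1 (SE 0.11, 95% interval -0.06 to 0.42, adjusted p = 0.319) and of -0.54 for sus1 (SE 0.21, 95% interval -0.996 to -0.08, adjusted p = 0.148). The share of genes called was 0.00477% with all libraries. Without the 6 libraries, where it was 58.2%, sh1 was at 0.36 (SE 0.03, adjusted p = 2.12e-07) and sus1 at -0.51 (SE 0.07, adjusted p = 0.000607). These averages were opposite in sign, but by line only line A was so in that fit (0.77 for sh1, -0.33 for sus1). Both genes were negative in WT (-0.24 and -1.41) and positive in line S (0.55 and 0.22, where sus1 did not pass).

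Before hypoxia neither gene passed the threshold in either transgenic line against WT with all 18 libraries, and the 95% intervals were wide. For S_0h against WT_0h the log2 difference was -0.13 in sh1 (SE 0.20, 95% interval -0.55 to 0.29, adjusted p = 1) and -0.47 in sus1 (SE 0.37, 95% interval -1.27 to 0.32, adjusted p = 1), and 0% of genes were called. The sus1 value depended on single libraries, from -0.19 without S_0h replicate 1 to -1.10 without S_0h replicate 3, and passed in none of these fits. For A_0h against WT_0h it was -0.02 in sh1 (SE 0.20, 95% interval -0.44 to 0.39, adjusted p = 0.96) and -0.41 in sus1 (SE 0.37, 95% interval -1.20 to 0.39, adjusted p = 0.555), beside 3.32% of genes called. The sus1 value ran from -0.15 without WT_0h replicate 1 to -0.73 without WT_0h replicate 2. The sign of the sh1 difference turned when any of WT_0h replicate 1 and A_0h replicates 1 and 2 was left out, where it reached 0.11. Both genes measured lower than in WT in both lines once the 6 libraries were left out, with p-values that are too small because of how the 6 were picked. For sus1 this took out S_0h replicate 3 at 7285 CPM and WT_0h replicate 2 at 2948 CPM, which lay against the difference between S_0h and WT_0h. The sus1 difference was then -1.42 in line S (SE 0.12, adjusted p = 0.000328, 20.1% of genes called) and -0.62 in line A (SE 0.12, adjusted p = 0.0045, 49.2% called). The sh1 difference was -0.31 in line S (SE 0.05, adjusted p = 0.000883) and -0.41 in line A (SE 0.05, adjusted p = 2.39e-05).

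Between the transgenic lines at 0 h, A_0h minus S_0h was 0.11 in sh1 (SE 0.20, 95% interval -0.31 to 0.52, adjusted p = 0.81) and 0.07 in sus1 (SE 0.37, 95% interval -0.73 to 0.86, adjusted p = 0.944), with 1.82% of genes called. The sh1 value turned to -0.19 without A_0h replicate 3, and the sus1 value to -0.21 without S_0h replicate 1. The sus1 value also changed sign without S_0h replicate 2 or A_0h replicate 1. With the 6 libraries left out, sus1 was higher in line A by 0.80 (SE 0.12, adjusted p = 0.00116), where 54.3% of genes were called, and sh1 was at -0.09 (SE 0.05, adjusted p = 0.156).

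After 12 h of hypoxia both genes were higher in line A than in WT without overlap of the groups, which 19.2% of tested genes showed in this direction. The sh1 difference was 0.57 on the log2 scale (SE 0.20, 95% interval 0.15 to 0.99, adjusted p = 0.0894), a fitted level 1.48-fold higher, where 6.47% of genes were called. It passed the threshold by DESeq2 (adjusted p = 0.0348) and with only these groups in the fit (adjusted p = 0.0208). It also passed without S_12h replicate 3 (adjusted p = 0.0373) or A_0h replicate 3 (adjusted p = 0.0268). In that order these fits called 3114 of 20384, 1034 of 19567, 2994 of 21224 and 2184 of 21314 genes. Leaving out the 6 libraries gave 0.60 (SE 0.05, adjusted p = 5.55e-07, 47.0% of genes called). The sus1 difference was 0.43 (SE 0.37, 95% interval -0.37 to 1.22, adjusted p = 0.513), and 0.45 without the 6 libraries (SE 0.11, adjusted p = 0.0177).

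In line S after 12 h, sus1 also lay above WT in every library, as 13.6% of genes did in this direction, with a log2 difference of 0.49 (SE 0.37, 95% interval -0.30 to 1.29, adjusted p = 0.393). The sh1 groups overlapped through S_12h replicate 3, and the difference was 0.30 (SE 0.20, 95% interval -0.11 to 0.72, adjusted p = 0.313), where 11.3% of genes were called. Once the 6 libraries were left out, sh1 was higher by 0.48 (SE 0.05, adjusted p = 3e-06, 58.5% of genes called), and sus1 was at 0.21 (SE 0.11, adjusted p = 0.175). Between A_12h and S_12h, with 0% of genes called, the log2 difference was 0.27 in sh1 (SE 0.20, 95% interval -0.15 to 0.68, adjusted p = 0.724) and -0.07 in sus1 (SE 0.37, 95% interval -0.86 to 0.73, adjusted p = 0.972). The sus1 value turned to 0.17 without S_12h replicate 3 and also changed sign without A_12h replicate 3. Neither gene passed without the 6 libraries, at 0.12 (adjusted p = 0.0677) and 0.25 (adjusted p = 0.128), where 47.6% of genes were called.

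The responses of the lines were compared directly, as differences between their log2 fold changes under hypoxia. For line S against WT it was 0.43 in sh1 (SE 0.28, 95% interval -0.16 to 1.03, adjusted p = 0.487) and 0.97 in sus1 (SE 0.53, 95% interval -0.16 to 2.09, adjusted p = 0.411), beside 0.105% of genes called. The sus1 value ran from 0.69 without S_0h replicate 1 to 1.59 without S_0h replicate 3. For line A against WT it was 0.59 in sh1 (SE 0.28, 95% interval 0.0028 to 1.19, adjusted p = 0.689) and 0.84 in sus1 (SE 0.53, 95% interval -0.29 to 1.96, adjusted p = 0.689), beside 0% of genes called. Here the sus1 value ran from 0.58 without WT_0h replicate 1 to 1.16 without WT_0h replicate 2. All 4 differences were larger and passed without the 6 libraries, where p-values are too small because of how the 6 were picked. For line S they were 0.79 in sh1 (SE 0.07, adjusted p = 1.59e-06) and 1.63 in sus1 (SE 0.16, adjusted p = 0.000259), where 43.7% of genes were called. For line A they were 1.01 in sh1 (SE 0.07, adjusted p = 9.73e-08) and 1.07 in sus1 (SE 0.16, adjusted p = 0.00182), where 47.8% were called. These comparisons share the WT libraries.

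**Figure D2:**
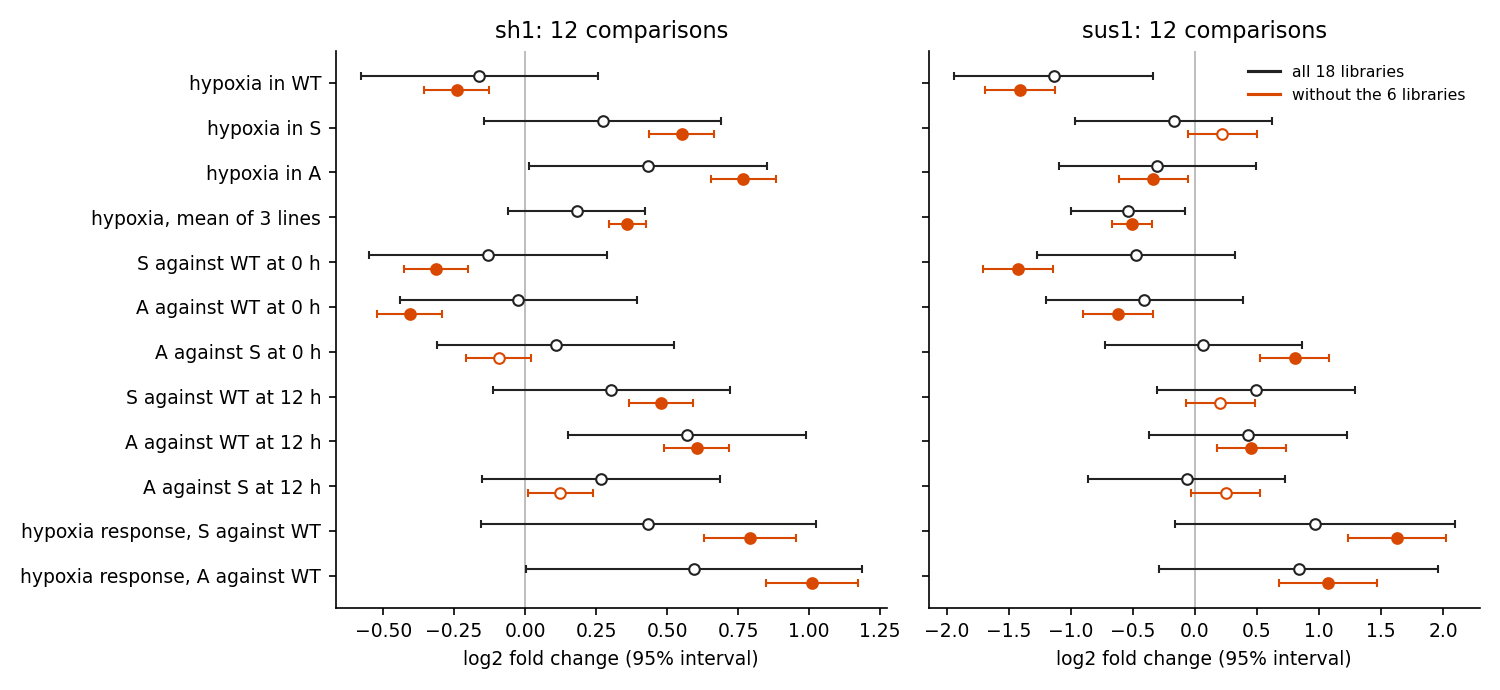
log2 fold change of sh1 (left) and sus1 (right) with its 95% interval (x axis) in the 12 comparisons (y axis), in black with all 18 libraries and in orange without the 6 libraries nearest to another label. Filled points have an adjusted p under 0.05. Orange intervals are too narrow and their adjusted p too small, because the 6 were picked from the same counts. No black point is filled, while 10 of 12 orange points of sh1 and 9 of 12 of sus1 are. In the fit without the 6 libraries, 20.1 to 59.5% of all 21030 tested genes were called, depending on the comparison. A filled orange point alone therefore did not set sh1 or sus1 apart.

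The balance between the isoforms was compared within each library as the number of sus1 counts per sh1 count, which does not depend on how libraries are scaled. Counts are not adjusted for transcript length, so only differences of this ratio between libraries are used and not its size. WT_0h held 4.76, 2.21 and 4.53 sus1 counts per sh1 count in replicates 1 to 3, and WT_12h held 1.99, 2.16 and 1.85. S_0h held 1.81, 2.54 and 4.67, and S_12h held 1.68, 1.75 and 4.02. A_0h held 4.04, 3.98 and 1.83, and A_12h held 1.87, 1.86 and 1.69. No library fell between 2.54 and 3.98. The 6 libraries above this gap were WT_0h replicates 1 and 3, A_0h replicates 1 and 2, S_0h replicate 3 and S_12h replicate 3. The latter pair belonged to the 6 libraries nearest to another label, and their nearest libraries were labelled WT_0h and A_0h.

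Under hypoxia the log2 ratio of sh1 to sus1 was higher in WT_12h than in WT_0h without overlap, at -0.998 ± 0.11 against -1.86 ± 0.62 (SD, n = 3). This difference of 0.86 had an exact two-sided permutation p of 0.1, the smallest that 3 against 3 libraries allow. The log2 fold change in WT was -1.14 for sus1 and -0.16 for sh1, so the ratio rose there without a higher level of sh1. In line A the difference in the log2 ratio was 0.78 (exact permutation p = 0.3), from -1.63 ± 0.65 to -0.85 ± 0.08. In line S it was 0.29 (exact permutation p = 0.5), from -1.47 ± 0.69 to -1.19 ± 0.71, and it turned to -0.090 without S_0h replicate 3. These differences without the 6 libraries were 1.16 in WT, 1.103 in line A and 0.32 in line S, each with an exact permutation p of 0.333, the smallest that 2 against 2 libraries allow. Averaged over the lines, with libraries exchanged only within a line, the ratio moved towards sh1 by 0.64 (exact permutation p = 0.0213). Adjusted over the 10 comparisons of the ratio this was 0.213 and did not pass. It passed without S_12h replicate 3 (adjusted p = 0.0475) and with labels exchanged only within a replicate number (replicate block, adjusted p = 0.0391), although the numbers were not found to pair the libraries. Without the 6 libraries the average was 0.86 (exact permutation p = 0.00926, the smallest that 216 arrangements allow). Adjusted over the 10 comparisons this was 0.0926, the lowest value possible with these libraries, so it could not pass whatever the ratios. None of the 6 differences between lines at 1 time had an exact permutation p under 0.3, and their sizes ran from -0.19 for S_12h minus WT_12h to 0.39 for S_0h minus WT_0h. They ran, without the 6 libraries, from -0.91 for A_0h minus S_0h to 1.12 for S_0h minus WT_0h.

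**Figure D3:**
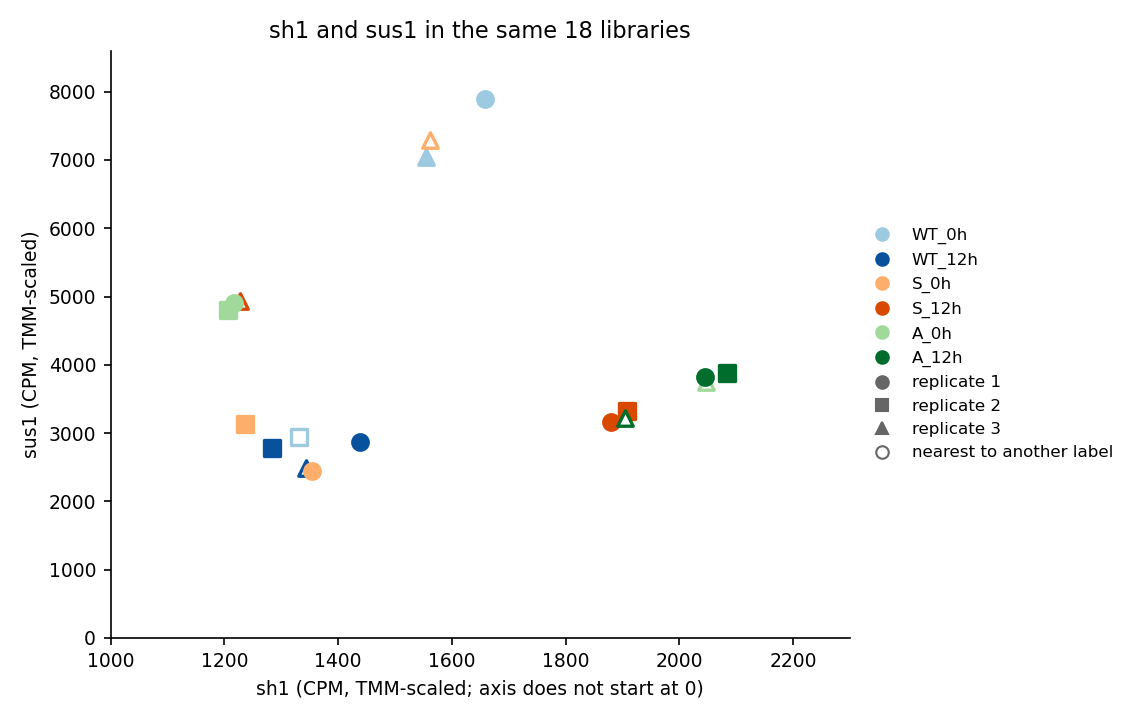
Level of sh1 (x axis, CPM, not starting at 0) against sus1 (y axis, CPM) in the 18 libraries, with colour for the labelled group, shape for the replicate and open markers for the 6 libraries nearest to another label. The libraries high in sh1 (1880 to 2083 CPM) and those highest in sus1 (7039 to 7890 CPM) are different ones, and open markers lie beside filled markers of another colour.

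The levels of the 2 genes in the 6 libraries were set against both kinds of neighbour. For sus1, all 6 of the libraries nearest to another label measured closer to their 2 nearest libraries than to the other 2 of their own label, and for sh1 5 of 6 did. The exception was sh1 in WT_12h replicate 3, at 1343 CPM beside 1438 and 1283 CPM under its own label and 1353 and 1235 CPM in its nearest libraries. The level in these libraries was 0.972 to 1.04 times the mean of their nearest libraries for sh1 and 0.889 to 1.04 times for sus1. Against the other libraries of their label it was 0.649 to 1.69 times for sh1 and 0.395 to 2.61 times for sus1. The nearest libraries were found over all tested genes, these 2 included, so these values are a description. How many other genes show the same was not counted, so the values do not set sh1 and sus1 apart. What put these libraries near another label was not tested.

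**Figure D4:**
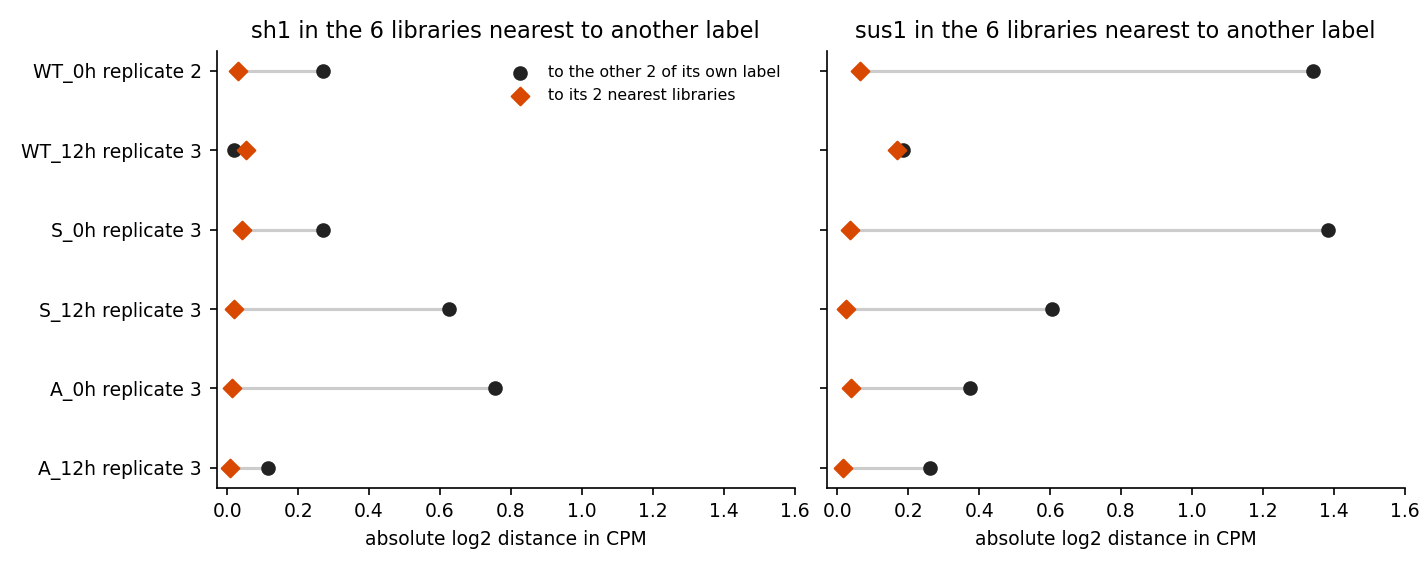
Absolute log2 distance in CPM (x axis) of each of the 6 libraries nearest to another label (y axis) from the mean of the other 2 libraries of its own label (black circles) and from the mean of its 2 nearest libraries (orange diamonds), for sh1 (left) and sus1 (right). The diamond lies nearer to 0 for all 6 libraries in sus1 and for 5 of 6 in sh1, WT_12h replicate 3 being the exception. How many other genes show the same was not counted.

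Scatter between libraries of a label was large for both genes. The pooled SD of log2 CPM within labelled groups was 0.25 for sh1 and 0.50 for sus1, larger than in 75.3% and 92.6% of the 12145 genes with a mean of at least 10 CPM, whose median was 0.17. Without the 6 libraries it was 0.07 for sh1 and 0.12 for sus1, where the median gene was at 0.06, and 53.2% and 88.0% of genes were below them.

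The 2 sucrose synthases did not share a pattern across libraries. The Pearson correlation of their log2 CPM over the 18 libraries was 0.05, which placed sus1 at rank 5720 of the 12144 genes compared with sh1. As a description, the genes most like sh1 were Zm00001d001984.RefGen_V4 (r = 0.955), Zm00001d035964.RefGen_V4 (r = 0.953) and Zm00001d003277.RefGen_V4 (r = 0.951). The first of them ran from 6.71 CPM in A_0h replicate 1 to 47.8 CPM in A_12h replicate 2. Those most like sus1 were Zm00001d051001.RefGen_V4 (r = 0.925), Zm00001d016198.RefGen_V4 (r = 0.925) and Zm00001d007215.RefGen_V4 (r = 0.91). The first of these measured 1832 CPM in WT_0h replicate 1 and 960 CPM in A_12h replicate 3. The libraries fall into sets that resemble each other, so the 18 points are not independent. Without the 6 libraries r was 0.945 to 0.954 for the 3 genes most like sh1, 0.918 to 0.928 for those most like sus1, and 0.07 between sh1 and sus1. The 6 genes are given by ID, without names or functions.

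Because these are bulk libraries, fewer cells that express a gene and less transcript per cell cannot be told apart. A list of 21 other symbols of sucrose metabolism (further sucrose synthases, invertases, fructokinases, hexokinases and others) was not tested, since 0 of them could be paired with an ID of the counts.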

How the data were processed

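The deposited values are whole-number read counts per gene, not normalised, in 1 table of 28724 gene IDs and 18 columns that match the library titles. The submitters' processing notes name HISAT2, featureCounts and, as the build, B73 RefGen_v4. The sources used here do not give versions, the strand setting or how reads with several matches were treated, so reads shared between sucrose synthase paralogs are uncertain. Total counts ran from 35441975 to 89759585, and counting error covers counting only.

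Counts were analysed with edgeR 4.0.16 (limma 3.58.1, R 4.3.3): filterByExpr kept 20945 genes, TMM factors ran from 0.975 to 1.02, and a robust quasi-likelihood model with a mean for each of the 6 groups was fitted to the 18 libraries (12 residual degrees of freedom). Adjusted p is Benjamini-Hochberg over all tested genes, and standard errors were derived from the F statistics. Log2 CPM used a prior count of 2. Ratios of the 2 genes were compared by exact two-sided permutation tests. Nearest libraries were those with the highest Spearman correlation of log2 CPM, at least 0.9964 to the second nearest and at most 0.991 to the third. The genes most alike were, by rule, the 3 with the highest Pearson correlation among those with a mean of at least 10 CPM.

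Alternatives were RLE scaling, DESeq2 1.42.0, testing with no filter on low counts, the replicate number as a block, only the groups compared, each library left out in turn, and all 6 libraries nearest to another label left out. The members, lists and alternatives were chosen with earlier results of these data known. No label states that the libraries of 1 group are from different pools of roots, so p-values cover the spread among these libraries alone, and that spread may be technical.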

Additional observations from a re-analysis of the deposited data

How the results depend on the processing

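Values are log2 differences. RLE scaling and no low-count filter changed no direction or call of either gene in any comparison, and DESeq2 changed the call of 1, sh1 in A_12h minus WT_12h (0.57, adjusted p = 0.0348), which also passed with only the groups compared (0.57, adjusted p = 0.0208). That fit was not run for the mean of the 3 lines, where it is the same fit. Replicate numbers did not pair the libraries: correlations of same-numbered deviations ran from -0.36 to 0.54, and in 0 of 9 comparisons were all above 0.1. With the replicate block no call of sh1 or sus1 changed, and the mean ratio of sh1 to sus1 over the lines (0.64) passed (adjusted p = 0.0391).

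Leaving out the 6 libraries had the greatest effect, with p-values that are too small because the 6 were picked from the same counts. For sh1 the hypoxia responses became -0.24 in WT, 0.55 in S, 0.77 in A and 0.36 on average, and passed. Line differences that passed were -0.31 (S minus WT, 0 h), -0.41 (A minus WT, 0 h), 0.48 (S minus WT, 12 h) and 0.60 (A minus WT, 12 h), and A minus S at 0 h turned to -0.093. The response differences 0.79 (S) and 1.01 (A) passed. For sus1, -1.41 in WT, -0.33 in A and -0.51 on average passed and the response in S turned to 0.22. Line differences of -1.42 (S minus WT, 0 h), -0.62 (A minus WT, 0 h), 0.80 (A minus S, 0 h) and 0.45 (A minus WT, 12 h) passed, A minus S at 12 h turned to 0.25, and response differences of 1.63 (S) and 1.07 (A) passed. The ratio turned to 0.28 for S minus WT and to -0.12 for A minus S, both at 12 h.

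Leaving out 1 library at a time changed a call or a sign in 13 of 34 results. For sh1 the range was 0.30 to 0.72 for hypoxia in A, -0.32 to 0.11 for A minus WT and -0.19 to 0.24 for A minus S at 0 h, and 0.53 to 0.61 for A minus WT at 12 h. For sus1 it was -0.45 to 0.45 for hypoxia in S, and -0.21 to 0.69 at 0 h and -0.19 to 0.17 at 12 h for A minus S. For the ratio it was -0.090 to 0.70 for hypoxia in S, 0.52 to 0.78 on average, -0.14 to 0.59 for A minus WT and -0.53 to 0.16 for A minus S at 0 h, -0.41 to 0.22 for S minus WT and -0.074 to 0.55 for A minus S at 12 h. The cause was not tested. Ranges of the results that kept sign and call were, for sh1, -0.25 to -0.091 (hypoxia in WT), 0.17 to 0.45 (in S), 0.14 to 0.28 (mean), -0.23 to -0.056 and 0.20 to 0.48 (S minus WT at 0 and 12 h), 0.087 to 0.37 (A minus S, 12 h), and 0.33 to 0.61 (S) and 0.46 to 0.89 (A) for response differences. For sus1 they were -1.46 to -0.88 (hypoxia in WT), -0.42 to -0.22 (in A), -0.65 to -0.33 (mean), -1.10 to -0.19 and 0.26 to 0.61 (S minus WT at 0 and 12 h), -0.73 to -0.15 and 0.36 to 0.51 (A minus WT at 0 and 12 h), and 0.69 to 1.59 (S) and 0.58 to 1.16 (A) for response differences. For the ratio they were 0.67 to 1.22 (hypoxia in WT), 0.58 to 1.15 (in A), 0.076 to 0.76 (S minus WT, 0 h) and 0.088 to 0.20 (A minus WT, 12 h). In ratio comparisons of 2 groups only the sign could change, since so few libraries allow no exact permutation p under 0.05.

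In the order of comparisons in the plot of log2 fold changes, edgeR called 0, 1822, 0, 1, 0, 696, 382, 2370, 1356, 0, 22 and 0 genes with all libraries, and DESeq2 called 7, 3769, 171, 1921, 13, 2305, 2064, 4058, 3114, 90, 807 and 14. With the replicate block the counts above 0 were 790, 1 (mean of lines), 285, 135, 1284, 577 and 2. With only the groups compared they were 166, 33, 50, 85, 1034 and 149. They ran from 0 to 6485 without 1 library and from 4232 to 12514 without the 6.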
